A study of Mus musculus with 4 samples.

Results

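Malat1 and Neat1 are long non-coding RNAs that stay in the nucleus and are made from neighbouring genes on mouse chromosome 19. The rows that carried either gene name in the deposited tables of called N6-methyladenosine (m6A) sites were taken, which gave 28 different bases, 15 in Malat1 and 13 in Neat1, out of 10598 different bases in 5526 named genes. These bases were listed 41 times over 4 libraries, 26 times for Malat1 and 15 times for Neat1. The rows were taken by gene name alone.

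Malat1 is an abundant RNA that concentrates at nuclear speckles, the domains where splicing factors gather. Neat1 is the scaffold of paraspeckles, bodies that form around its long isoform together with the proteins Nono and Sfpq, and its short isoform starts at the same promoter and covers the 5′ part of the long one. In mRNA and long non-coding RNA, m6A is written mainly by the METTL3 and METTL14 complex at an adenosine that is followed by C and preceded by A or G. Human MALAT1 is the textbook case of an m6A switch: methylation of an adenosine in a GAC trinucleotide inside a hairpin loosens the stem and opens a run of U opposite it to the protein HNRNPC, and the reader YTHDC1 binds the methylated RNA at speckles.

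The libraries came from cortical cells of mice of genotype APOBEC1-YTH, in which the YTH domain, which binds m6A, is joined to the cytidine deaminase APOBEC1. Tamoxifen was started at an age of 10 weeks and given for 5 days, with 24 hours between doses of 20 mg/kg, and tissue was collected 7 days after the last dose. Astrocytes were sorted by ACSA2 and microglia by CD11b, with 2 libraries of each label, called astrocyte 1, astrocyte 2, microglia 1 and microglia 2 here. Every group carried the fusion and the drug, no library without them was used here, and the labels name no promoter for the fusion or its recombinase. The labels do not say whether replicates came from separate animals, so any p-value measures only the spread between these libraries. In GLORI, the chemistry turns unmodified adenosine into a base that is read as G, and the level of a site is the share of reads that kept A. The tables hold levels with no read counts, so the depth behind each level is unknown. They list no level under 10.0%, and a base that is absent from a table may be unmethylated, below a limit for calling or unread.

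Marker genes did not follow the labels in replicate 2. Of 20 astrocyte markers, 18 carried a site in astrocyte 1, 1 did in astrocyte 2, 0 did in microglia 1 and 13 did in microglia 2. Of 20 microglia markers, the same libraries had sites in 2, 16, 14 and 0. Of 10 oligodendrocyte markers, sites were listed in 8 genes of astrocyte 1 and 7 genes of microglia 2, and in 0 of the other two. Of 10 neuron markers, 1 had a site, in astrocyte 1. Itgam, which encodes the sorted antigen CD11b, had its single site in astrocyte 2. Values are therefore given per library, and the level differences, recurrence, 3-mers, spacing, low levels and the genes nearest to Malat1 also for the replicate 1 libraries alone. The tables hold between 6343 (microglia 1) and 12687 (astrocyte 1) sites, of which 1066 to 4790 lie in named genes.

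Malat1 had sites in every library, and Neat1 did not. Astrocyte 1 listed 5 Malat1 sites and astrocyte 2 listed 9, against 5 in microglia 1 and 7 in microglia 2. As a share of all sites in named genes, Malat1 made up 0.104% in astrocyte 1 (exact 95% binomial interval 0.0339% to 0.243%) and 0.383% in astrocyte 2 (0.175% to 0.726%). It made up 0.469% in microglia 1 (0.152% to 1.09%) and 0.185% in microglia 2 (0.0744% to 0.381%). These intervals cover the counting of sites only, and those of all 4 libraries overlap. Genes with more sites than Malat1 numbered 56 in astrocyte 1 and 1 in astrocyte 2, the slingshot phosphatase gene Ssh2, against 4 in microglia 1 and 13 in microglia 2. The 4 of microglia 1 were Cx3cr1 and P2ry12, receptors of microglia, Mpeg1, a pore-forming protein of macrophages, and Soga1.

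Most Neat1 sites came from a pair of libraries. Astrocyte 1 listed 10 and astrocyte 2 listed 1, against 0 in microglia 1 and 4 in microglia 2. Both labels thus held a library with several Neat1 sites and one with few or none. In the replicate 1 libraries alone the count was 10 in astrocyte 1 and 0 in microglia 1. The libraries with most Neat1 sites were also those with sites in most astrocyte and oligodendrocyte markers, whose part in this was not tested. A count of 0 among the 1066 named-gene sites of microglia 1 allows a Neat1 share of up to 0.281% (3 sites), which is above the 0.209% of astrocyte 1 and the 0.106% of microglia 2. A lower share in microglia 1 was therefore not detectable at this number of sites. In bulk samples, fewer cells with a transcript and less of it per cell cannot be told apart.

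**Figure D1:**
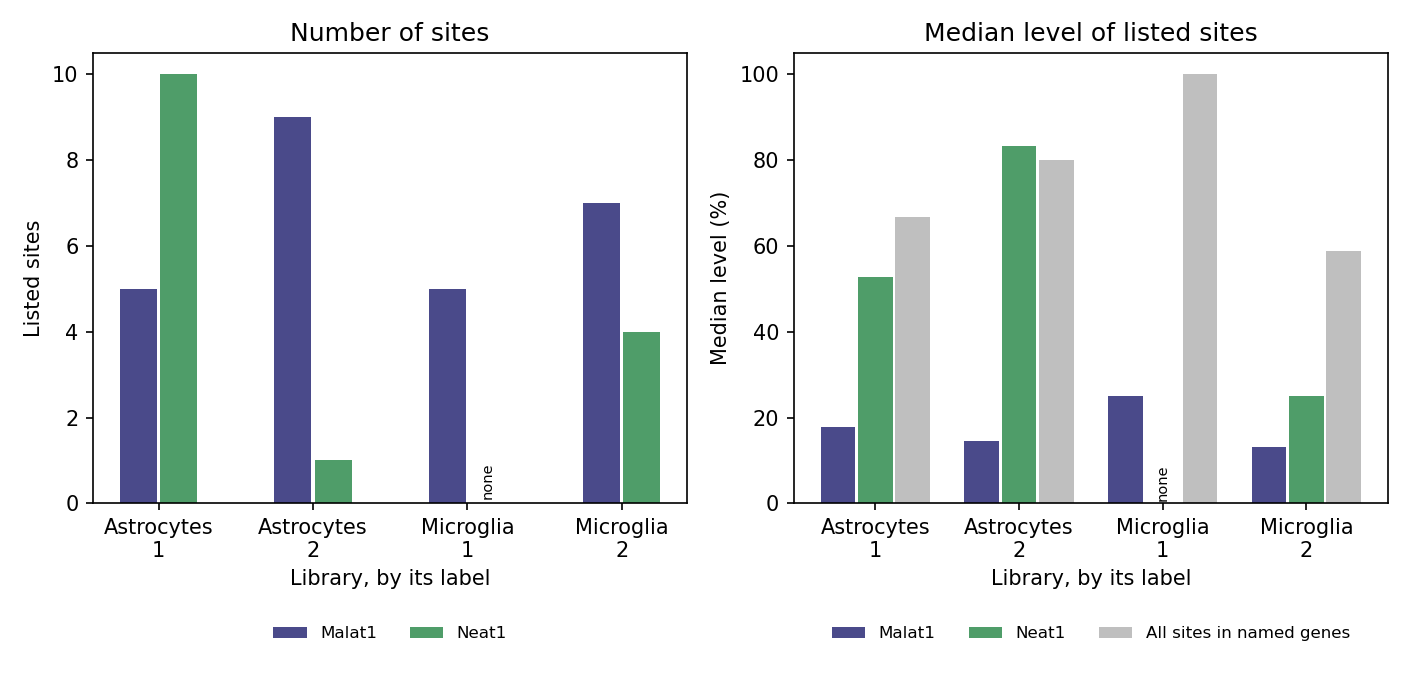
Number of listed sites (left) and median level in percent (right) of Malat1 and Neat1 in each library, with the median of all sites in named genes in grey; "none" marks microglia 1, which lists no Neat1 site. Malat1 has 5 to 9 sites per library at medians of 13.02% to 25.0%, while Neat1 ranges between 0 and 10 sites.

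The 15 Malat1 bases all lay on the minus strand of chromosome 19 in the build mm39, between positions 5846790 and 5852422. Because the gene runs along the minus strand, its 5′ end has the higher position, and the bases are given here in the direction of transcription. No sequence of mm39 was used here, so the 3-mer in the tables is the only sequence given for each base, with the methylated A in its centre. The most 5′ listed base, 5852422, was a GAC listed at 22.0% in microglia 2 alone. It was followed after 832 nt by the GAC at 5851590, listed at 71.2% in astrocyte 1 and 66.7% in astrocyte 2 and in neither library labelled microglia. The GAC at 5851314 stood at 85.7%, the highest Malat1 level of all, in microglia 1 alone.

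From the next base on, no Malat1 level was above 29.7%. The split was placed after the last base with a mean of 65% or more, so it was drawn from these same levels. The remaining 12 bases, from 1698 to 5632 nt downstream of the most 5′ one, were listed 22 times at levels between 10.0% and 29.7%, with a median of 15.8%. The first of them was the GAC at 5850724, at 26.7% in microglia 1, and it was the one Malat1 base whose 3-mer is written in lower case, a notation that the tables do not explain. The GAC at 5850237 stood at 17.9% in astrocyte 2. A close pair came next, the AAC at 5849975 and the AAC at 5849957, only 18 nt apart, which was the smallest gap within the gene. Astrocyte 2 listed both, at 25.0% and 11.0%.

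The AAC at 5849975 was also listed in 2 other libraries. Its level was 15.0% in astrocyte 1 and 25.0% in astrocyte 2, against 13.02% in microglia 2, with no listing in microglia 1. The GAC at 5849778 stood at 20.7% in astrocyte 1, against 16.7% in microglia 1 and 23.1% in microglia 2, and was not listed in astrocyte 2. At this base the microglia libraries lay on both sides of the astrocyte one. The AAC at 5849353 was listed at 11.0% in microglia 2 alone and the AAC at 5848845 at 13.2% in astrocyte 2 alone.

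Both bases listed in all 4 libraries lay in the 3′ part and both were GAC. At 5848296 the level was 17.8% in astrocyte 1 and 14.4% in astrocyte 2, against 20.0% in microglia 1 and 17.7% in microglia 2. The 4 values lay within 5.56 points and the groups overlapped. At 5846790, the most 3′ listed base, it was 14.3% in astrocyte 1 and 29.7% in astrocyte 2, against 25.0% in microglia 1 and 12.3% in microglia 2. Here the values spread over 17.4 points, and each label had 1 high and 1 low library. The low values were those of the libraries with sites in 18 and 13 of the 20 astrocyte markers. The high values were those of the libraries with sites in 16 and 14 of the 20 microglia markers. At 5848296 the libraries did not split this way, with 17.8% and 17.7% between 14.4% and 20.0%. The order was the same at 5849975 (15.0% and 13.02%, against 25.0% in astrocyte 2). It was reversed at 5849778 (20.7% and 23.1%, against 16.7% in microglia 1). The part of the markers' cell types in the levels was not tested. Between 5848296 and 5846790 lay 3 bases that a single library listed. They were the GAC at 5847888 at 12.1% in microglia 2, and in astrocyte 2 the GAC at 5847749 at 10.0% and the AAC at 5847248 at 13.5%.

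**Figure D2:**
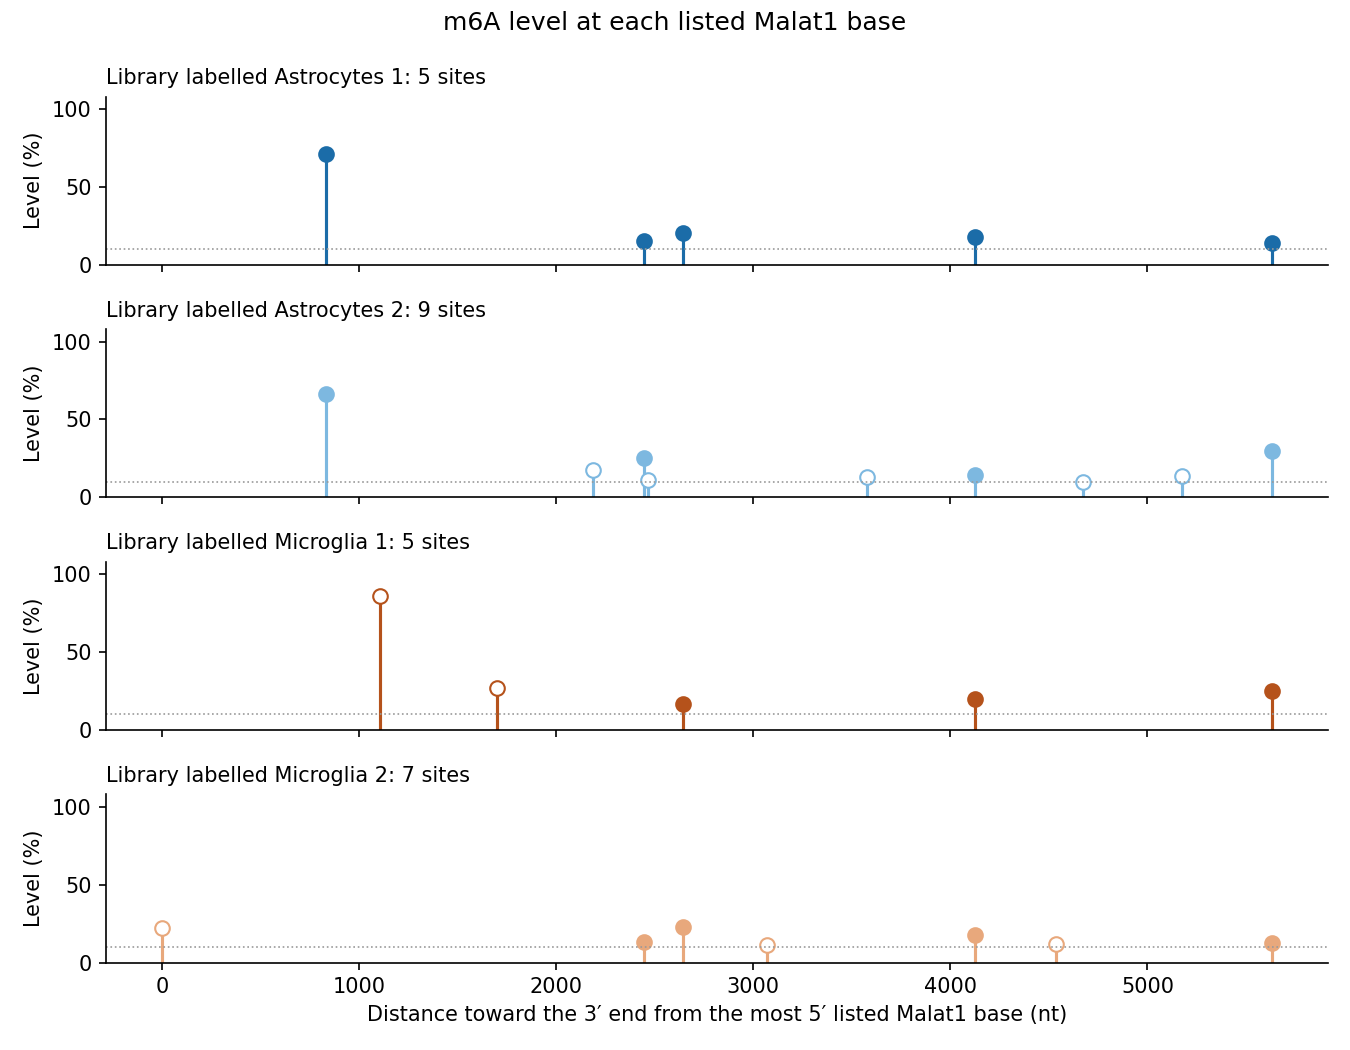
Level in percent (vertical axis) of each listed Malat1 base against its distance in nt toward the 3′ end from the most 5′ listed base, 1 panel a library; filled points are bases listed in 2 or more libraries, open points bases listed in 1, and the dotted line is at 10%, near which the tables start. The levels of 66.7% to 85.7% stand at 832 and 1108 nt, and from 1698 nt on every listed level is at or below 29.7%.

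Whether the level differed between the labels was tested at the bases listed in all 4 libraries, by limma on log2 odds of the level over the whole table. At 5846790 the mean was 22.0% ± 10.9 in astrocyte libraries and 18.6% ± 9.0 in microglia libraries (SD, n = 2 each), a difference of 0.29 ± 0.87 (SE) in log2 odds with a limma adjusted p of 0.896. The direction turned with the libraries used: astrocyte minus microglia was -10.7 points in the replicate 1 libraries and 17.4 points in the replicate 2 libraries. In log2 odds it was also negative without astrocyte 2 (-0.38) and without microglia 2 (-0.33). At 5848296 the mean was 16.1% ± 2.4 in astrocyte libraries and 18.9% ± 1.6 in microglia libraries (SD, n = 2 each), a difference of -0.28 ± 0.58 (SE) in log2 odds with a limma adjusted p of 0.831. There the difference was -2.22 points in the replicate 1 libraries and -3.29 points in the replicate 2 libraries. Neither base passed the threshold of 0.05. Each label held a library with sites in most astrocyte markers and another with sites in most microglia markers. The test therefore compares the labels and cannot speak to astrocytes against microglia. Over all 354 sites that could be tested, limma called 0, or 0%, with 16 at an unadjusted p under 0.05. The levels of the groups did not overlap at 62 of the 354 sites (17.5%) and at 0 of the 2 Malat1 bases. Permuting the labels gave an exact two-sided p of 0.667 for each base, where the smallest p that 4 libraries allow is 0.333.

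Agreement between single libraries was closest for astrocyte 1 with microglia 2. At the 4 Malat1 bases that both listed, their levels differed by 0.051 to 2.40 points, with a mean of 1.61. Over the other 5 pairs of libraries, which shared 2 to 4 Malat1 bases each, the mean difference was between 5.11 and 10.9 points. The astrocyte pair differed by 8.30 points on average over 4 bases and the microglia pair by 7.14 points over 3 bases. These means rest on few bases and were not tested. Astrocyte 1 and microglia 2 are also the libraries with sites in most astrocyte and oligodendrocyte markers, whose part in this was not tested. For other named genes at sites below 100% in both libraries, astrocyte 1 and microglia 2 differed by 15.5 points on average over 362 sites and the other pairs by 11.4 to 14.7 points, so that pair was not the closest there by level. It shared the most such sites, 5.75% of those that either library listed, where the other pairs shared 1.44% to 3.61%.

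**Figure D3:**
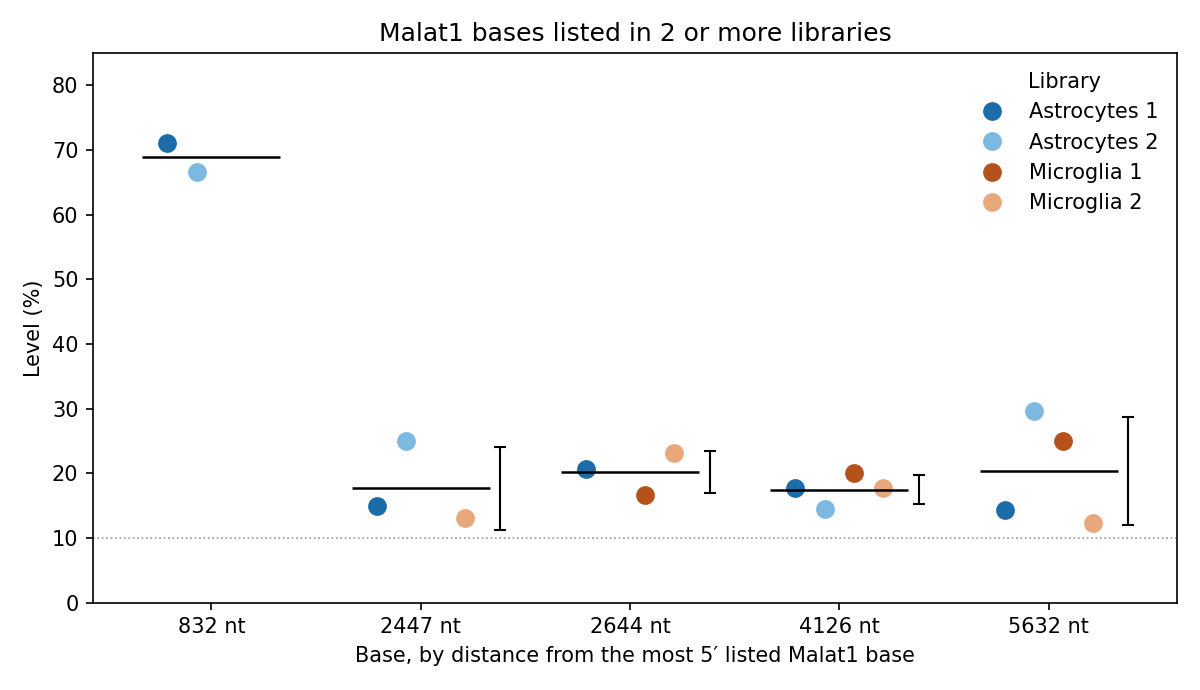
Level in percent of the 5 Malat1 bases listed in 2 or more libraries, placed along the gene by distance in nt from the most 5′ listed base; points are libraries, horizontal lines their mean and bars 1 SD where 3 or 4 libraries list the base. The bases at 2447 to 5632 nt lie between 12.3% and 29.7%, apart from the base at 832 nt at 66.7% and 71.2%.

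Malat1 bases recurred across libraries. Of its 15 bases, 2 were listed in all 4 libraries, 2 in 3 libraries, 1 in 2 libraries and 10 in 1 library. That 33.3% of bases came up in 2 or more libraries (exact 95% binomial interval 11.8% to 61.6%) compares with 9.68% of 10570 bases in other named genes (9.12% to 10.3%) and 29.0% of 14997 bases outside named genes (28.3% to 29.7%), which lies within the Malat1 interval. No other named gene had 2 bases listed in all 4 libraries or 4 bases listed in 3 or more. The next by this measure were Marcks, a substrate of protein kinase C, Shq1, a box H/ACA RNP assembly factor, and Slc9b1, a sodium/proton exchanger, with 2 bases each in 3 or more libraries. By bases in 2 or more libraries, Kmt2d, a histone methyltransferase, and Slc1a2 stood above Malat1. In the replicate 1 libraries alone, 3 of 7 Malat1 bases were shared, at 5849778, 5848296 and 5846790, against 5.99% of bases in other named genes and 28.3% of those outside named genes. The bases share the gene, and libraries differ in unknown depth, so these shares describe the tables and were not tested.

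Malat1 bases that 1 library alone listed were often near the lower end of the tables, and such Neat1 bases were not. Of the 10 such Malat1 bases, 6 had levels below 15%, against 0 of the 11 such Neat1 bases (18.2% to 100%). This share was not counted for other named genes. Astrocyte 2 contributed 5 of the Malat1 bases, of which 4 were below 15%, and microglia 2 contributed 3, of which 2 were. Microglia 1 contributed 2, at 26.7% and 85.7%. Astrocyte 1 listed no Malat1 base of its own: each of its 5 was listed elsewhere. With no level under 10.0% in the tables, these values cannot show whether the base was lower in the other libraries or was not read there.

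Malat1 levels were low beside those of other genes. Of its 26 listings, 23 (88.5%) were below 30%, against 10.8% of 11945 listings in other named genes. For the replicate 1 libraries alone this was 8 of 10, against 10.4% of 5836. The Malat1 median was 17.8% in astrocyte 1 and 14.4% in astrocyte 2, where all named-gene sites had medians of 66.7% and 80.0%. It was 25.0% in microglia 1 and 13.02% in microglia 2, where named-gene sites stood at 100% and 58.9%. Among genes with 5 or more sites, Malat1 had the lowest median in 3 libraries, out of 22 genes in astrocyte 2, 6 in microglia 1 and 46 in microglia 2. In astrocyte 1, 3 of 93 such genes were lower, namely Mfge8, a secreted bridging protein for phagocytosis, Scd2, a fatty acid desaturase, and Slc1a3, a glutamate transporter. Of the 1100 sites that all 4 libraries listed, in and outside named genes, 5848296 had the lowest mean and 4 sites, 5848296 among them, were below 5846790. The other 3 were in Haspin, a histone kinase gene (mean 18.0%), Snord2, a small nucleolar RNA (18.4%) and Gm26165 (18.4%). Low levels were not confined to Malat1 among genes with many bases: of 23 genes with 13 or more bases, Malat1 had a median over listings of 17.8%, LOC115489466 17.3%, Appl2, an endosomal adaptor, 20.3% and Slc1a2, a glutamate transporter, 20.9%. Transcript abundance and read depth are unknown, and their part in these levels was not tested.

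The 3-mers of Malat1 were mixed. Of 15 bases, 10 (66.7%) were GAC and 5 (33.3%) AAC, close to the 67.2% GAC of other named genes. Counting the replicate 1 libraries alone, 6 were GAC and 1 was AAC. The 5 AAC bases had means between 11.0% and 17.7%, and the GAC bases between 10.0% and 85.7%. Of the 10 GAC bases 4 were listed in 2 or more libraries, and of the 5 AAC bases 1 was. The hairpin methylation known in human MALAT1 lies in a GAC, so the 5 AAC bases differ from it in the base before the A. Which of the 10 GAC bases, if any, matches a known hairpin was not determined, since that needs the sequence around each base.

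The 15 Malat1 bases covered 5632 nt with a median gap of 441.5 nt and a largest gap of 832 nt, and 1 gap was of 100 nt or less. The 7 bases of the replicate 1 libraries covered 4800 nt with a median gap of 669.5 nt. Among the 23 genes with 13 or more bases, Malat1 had the shortest distance between its outermost bases, and 10 had a lower median gap. Positions are genomic, so introns lengthen the gaps of spliced genes, while Malat1 is known as a largely unspliced RNA. The 5 bases in 2 or more libraries lay further apart, with a median gap of 1494 nt and a smallest of 197 nt.

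Neat1 bases lay between positions 5875362 and 5895072 of chromosome 19 (mm39, minus strand) and all 13 were GAC. Of these, 8 fell in the first 2444 nt from the most 5′ listed base. There, astrocyte 1 listed 5895072 at 21.7%, 5894768 at 20.9%, 5894482 at 38.7%, 5893452 at 69.2%, 5892800 at 18.2% and 5892628 at 100%. Microglia 2 listed 5894482 at 20.0% and 5894110 at 18.8%. The single Neat1 site of astrocyte 2, at 5893718, stood at 83.3%. Levels in this stretch thus ran between 18.2% and 100%, with neighbours such as 5892800 and 5892628, 172 nt apart, at both ends of the range in the same library.

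After a gap of 8221 nt, the largest in the gene, 5 bases followed toward the 3′ end. Astrocyte 1 listed 5884407 at 66.7%, and microglia 2 listed 5878071 at 40.0%. A group of 3 bases ended the listed stretch, with 5875505 at 66.7% and 5875494 at 37.5% in astrocyte 1, 11 nt apart, and 5875362 at 80.0% in astrocyte 1 and 30.0% in microglia 2. These bases lie up to 19710 nt from the most 5′ one, which is far beyond the extent of the short isoform as it is known, but no annotation of mm39 was used here and isoforms were not assigned.

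**Figure D4:**
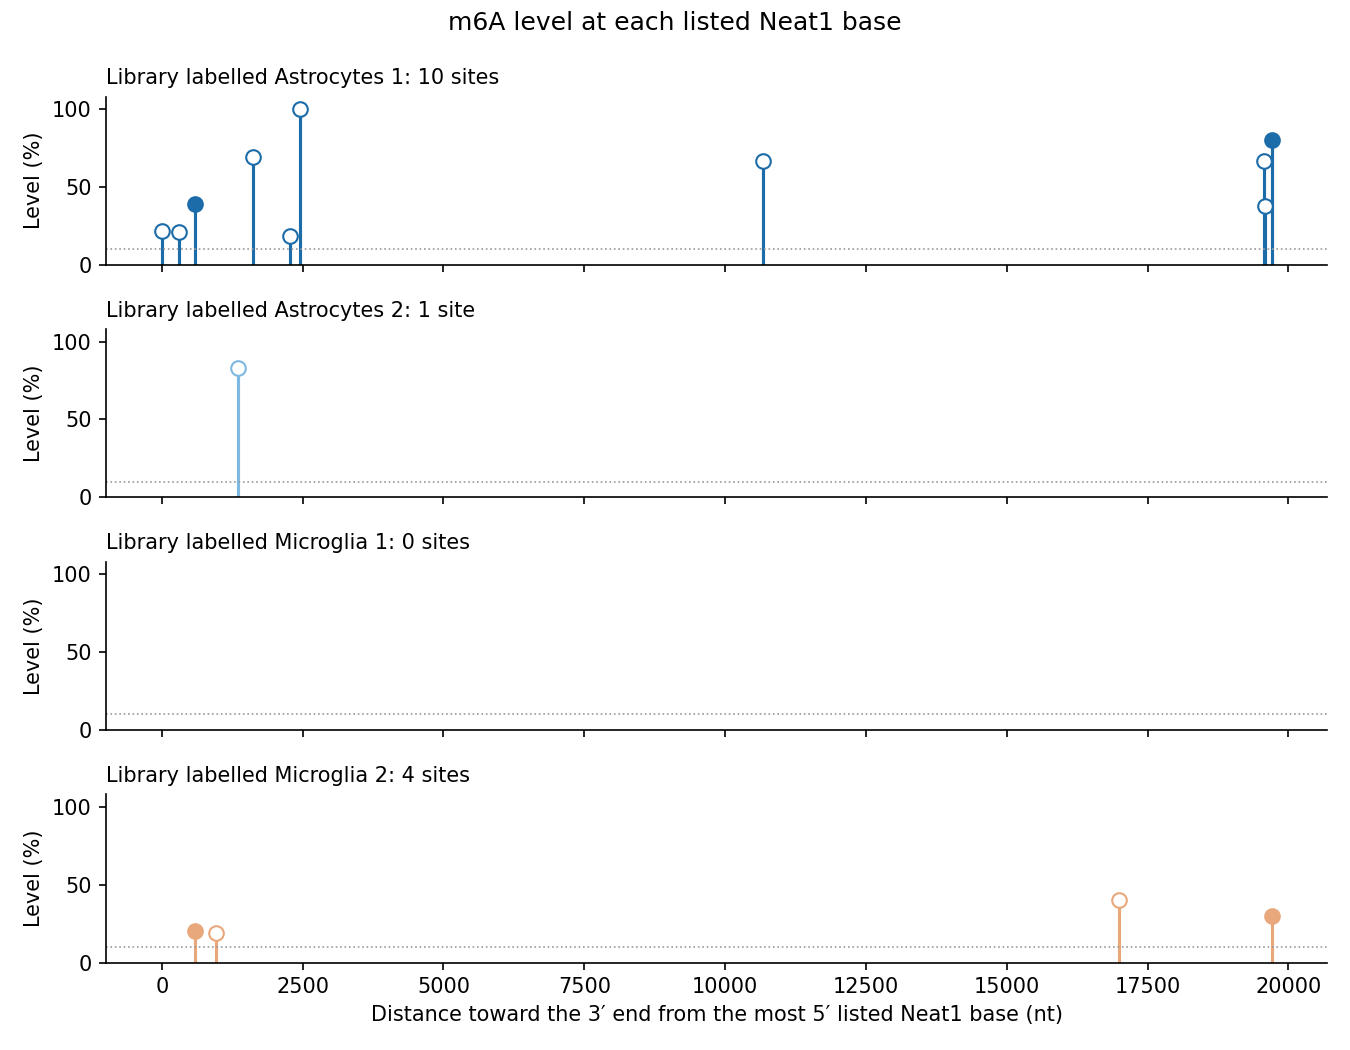
Level in percent (vertical axis) of each listed Neat1 base against its distance in nt toward the 3′ end from the most 5′ listed base, 1 panel a library; filled points are bases listed in 2 libraries, open points bases listed in 1, and the dotted line is at 10%. A group of 8 bases stands within 2444 nt and 5 between 10665 and 19710 nt, and microglia 1 has none.

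Of the 13 Neat1 bases, 2 (15.4%, exact 95% binomial interval 1.92% to 45.4%) were listed in 2 libraries, and 0 in 3 or more. Both were listed in astrocyte 1 and microglia 2. In other named genes, 9.68% of bases were listed in 2 or more libraries, a share within the Neat1 interval. At 5894482 the level was 38.7% in astrocyte 1 and 20.0% in microglia 2, and at 5875362 it was 80.0% and 30.0% in the same order. Both were higher in astrocyte 1, by 18.7 and 50.0 points. The same pair of libraries differed by at most 2.40 points at 4 Malat1 bases. Those bases stood at 12.3% to 23.1% in these libraries and the Neat1 bases at 20.0% to 80.0%, so the points compare unlike levels. At 362 sites of other named genes below 100% in both, they differed by 15.5 points on average and 60.7 at most. Astrocyte 1 was the higher at 205 of those sites. With 1 library of each label listing the 2 Neat1 bases and no other, neither Neat1 difference had a replicate check. In the test of the labels, 0 Neat1 bases entered. Without astrocyte 1 or without microglia 2, and so also in the replicate 1 libraries alone, 0 Neat1 bases recurred.

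Neat1 levels were higher than those of Malat1 in each of the 3 libraries that listed both. The Neat1 median was 52.7% against 17.8% for Malat1 in astrocyte 1, 83.3% from 1 site against 14.4% in astrocyte 2, and 25.0% against 13.02% in microglia 2. Of 15 Neat1 listings, 5 (33.3%) were below 30%, against 10.8% of listings in other named genes. Below 20% there were 2, against 15 of 26 for Malat1. The Neat1 median was below that of all named-gene sites in astrocyte 1 (66.7%) and microglia 2 (58.9%). In astrocyte 2 it was above (80.0%). In astrocyte 1, 59 of the 93 genes with 5 or more sites had a lower median than Neat1. The median gap between Neat1 bases was 338 nt, or 1550.5 nt without astrocyte 1, and 7 of the 23 genes with 13 or more bases had a lower one. It was 304 nt in the replicate 1 libraries alone. There, 3 of 10 Neat1 listings were below 30%, against 10.4% of listings in other named genes.

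No site under another name or on the other strand lay between the outermost bases of Malat1 or of Neat1 in any library. Between the 2 genes, over 22940 nt, 1 base was listed, a GAC outside named genes on the plus strand at 5859627, at 100% in astrocyte 1 and 100% in microglia 1. In RefSeq's table for GRCm38.p6, used only for names and neighbours, both genes are long non-coding RNAs with 0 genes between them, and Mascrna, the small RNA cleaved from the 3′ end of Malat1, is the 1 gene that lies within Malat1.

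By number of sites over the 4 libraries, measured as the summed absolute difference, the genes most like Malat1 were Notch2, a signalling receptor (a difference of 9 sites), Lrp1, a lipoprotein receptor (10), Son (11), Kmt2d (12) and Extl3, a heparan sulfate glycosyltransferase (13). The sites of Notch2 numbered 6 in astrocyte 1 and 9 in astrocyte 2, against 0 in microglia 1 and 4 in microglia 2, so even the nearest gene lacked the sites of microglia 1. Son, which encodes a core protein of nuclear speckles, had 8, 5, 2 and 6 sites in the same order. For Neat1 the nearest were Farp1, with 10, 0, 0 and 4 sites, and Tulp4, with 9, 0, 0 and 4. In the replicate 1 libraries alone, 5 genes were nearest to Malat1, at a difference of 4 sites and none of them among those above.

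Of 50 names of other long non-coding RNAs in the list used, among which Cyrano and Oip5os1 mean the same gene, 16 had a site. Astrocyte 1 listed 10 of them and astrocyte 2 listed 3, against 3 and 9 for microglia 1 and 2. Named genes with a site numbered 3152 and 1716 in astrocyte 1 and 2, against 940 and 2609 in microglia 1 and 2. Xist, the RNA that coats the inactive X chromosome, had as many bases as Malat1, 15. Its sites numbered 11 in astrocyte 1, against 5 in microglia 2, and the remaining libraries listed 0. Its levels ran between 12.1% and 100% with a median of 54.6%, and 1 of its bases was listed in 2 libraries. Tsix, the antisense partner of Xist, had 1 base, listed in every library at 100%. Kcnq1ot1, the antisense RNA of an imprinted locus, had 3 bases, each at 100%. The rest had 1 to 5 bases each. The median over all listings of the list was 60.0%.

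Of 29 genes for proteins of paraspeckles and speckles, 18 had a site in some library, with sites in 7 genes of astrocyte 1 and 10 of astrocyte 2, against 3 of microglia 1 and 13 of microglia 2. Son had 19 bases and Srrm2, another speckle protein, had 14. Sfpq, a paraspeckle protein that binds Neat1, had 0 sites in astrocyte 1, where Neat1 had most, and 4 in astrocyte 2, against 1 and 2 in microglia 1 and 2. Pspc1 had 1 site, in microglia 2 at 42.9%, and Nono had none. Of 21 names of writers, erasers, readers and other m6A factors, among which Hnrnpg and Rbmx mean the same gene, 10 had a site. Astrocyte 1 and 2 listed 6 and 4 of these genes, against 0 and 5 for microglia 1 and 2. The counts of this list and of the speckle list stand beside unlike totals of named genes with a site. Those totals were 3152 and 1716 in astrocyte 1 and 2, against 940 and 2609 in microglia 1 and 2. Hnrnpc, whose product binds the MALAT1 switch in human cells, had 1 site, at 100% in astrocyte 2, and Ythdc1 had none. The median level over listings was 17.8% for Malat1, against 50.0% for the speckle and paraspeckle list and 80.0% for the m6A factors.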

How the data were processed

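GLORI libraries of sorted cortical astrocytes and microglia were made by the authors with a stranded low-input total RNA kit, per the labels' protocols, and GLORI-tools called the sites, as the series' design text states. The submitters' processing notes name STAR and mm39. The limits for a call are not stated there. Each deposited table gives the level of a site as a fraction, with no counts or coverage, so depth and the precision it gives are unknown. The fraction was multiplied by 100. Bases were matched by chromosome, position (end column, 1-based) and strand.

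Levels were tested with limma 3.58.1 in R 4.3.3 on log2 odds, levels held to 0.01 to 0.99, over the 1100 sites found in every library, with no replicate term and with Benjamini-Hochberg adjustment over all tested sites. Sites tied within both labels have no spread and were left out, which left 354 of 1100. The test was tried on simulated data. Intervals on shares are exact (Clopper-Pearson, 95%) and cover counting of sites only. All bases of both genes are named. Other genes are the 5 closest in site numbers (fewer where ties made more), those ahead by bases in several libraries, and examples from the lists. Where more genes qualified, counts are given. Members and lists were chosen with earlier results of these data known. Folding of the sequence around each base was planned and not run, because no genome of that build was used here.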

Additional observations from a re-analysis of the deposited data

How the results depend on the processing

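Of the level differences, 5846790 changed direction: it was -0.38 log2 odds without astrocyte 2, -0.33 without microglia 2 and -1.002 in the replicate 1 libraries alone, and leaving out 1 library gave -0.38 to 0.97. At 5848296 it stayed negative, at -0.46 to -0.10. The number of sites called by limma was 0 in every setting tried, including the replicate block, where the adjusted p was 0.953 for 5846790 and 0.95 for 5848296. The replicate numbers do not pair the libraries by any label, and the correlation of same-numbered deviations was -0.070 over the tested sites. Malat1 listings numbered 11 at 20% or more and 3 at 30% or more, against 26, and its bases in 2 or more libraries numbered 3 at 20% or more and 3 in the replicate 1 libraries alone, against 5. They numbered 4 to 5 when 1 library was left out. Neat1 listings numbered 13 and 10 at these levels, against 15. Its bases in 2 libraries numbered 0 to 2 when 1 library was left out and 0 in the replicate 1 libraries alone. Median gaps were 1494 nt for Malat1 and 19120 nt for Neat1 over bases in 2 or more libraries, and without astrocyte 1 the Neat1 median was 1550.5 nt. The mean over libraries of the Malat1 median minus the named-gene median was -58.8 points, -37.7 for sites below 100% and -56.4 for GAC sites. Matching within 2 nt changed no count, nor did taking sites by position between the outermost named bases. The latter could not add sites beyond those bases. The causes were not tested. In the replicate 1 libraries alone, a setting chosen for spacing and levels after seeing the data, the Malat1 median minus the named-gene median was -61.9 points on average. A fit chosen after seeing the data, over sites found under both labels, called 0 of 694. Read depth limits every level here.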
